A study of Mus musculus with 16 samples.

Results

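Expression of 10 genes that encode neuropeptide precursors, 1 of them a granin stored with the peptides, was followed in primary hippocampal neurons of CD1 mice grown with astrocyte-derived apoE lipoproteins. The genes were Npy, Sst, Cck, Penk, Tac1, Vip, Crh, Pdyn, Nts and Scg2, taken by symbol from the first column of all 16 count files, which list 48397 symbols. Of these 10 members, 9 were among the 17038 genes with enough reads to be tested, and Crh was not. The neurons came from newborn wild type pups and received AraC, which stops dividing cells, in every group. They were given 10-fold concentrated medium at 10 and 13 days in vitro (DIV) and were harvested at 17 DIV. The medium had been conditioned by immortalized astrocyte lines that were homozygous for human apoE2, apoE3 or apoE4 and came from APOE targeted replacement mice. Control neurons received medium from Apoe-/- astrocytes, so each comparison with control is of medium with human apoE lipoproteins against medium from a separate astrocyte line without apoE. Each group had 4 libraries, numbered 1 to 4 in every group. Each medium came from 1 kind of immortalized line, so apoE isoform and astrocyte line cannot be told apart.

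Neuropeptides are cut from longer precursors by prohormone convertases inside dense-core vesicles and act on G protein-coupled receptors, usually more slowly and over a longer range than glutamate or GABA. In the hippocampus, neuropeptide Y (Npy), somatostatin (Sst), vasoactive intestinal peptide (Vip) and much of cholecystokinin (Cck) belong to GABAergic interneurons, while the opioid precursors Penk and Pdyn and secretogranin II (Scg2) are also made by excitatory cells. Several of these genes are textbook targets of the transcription factor CREB, which binds the cyclic AMP response element (CRE).

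The RefSeq promoter table (GRCm38.p6) held windows for 8 of the 10 members, without Penk and Crh. In the 250 bases before the annotated start, the full CRE letters TGACGTCA were found for 2 of the 8, Sst and Scg2, against 1.55% of 32851 windows of the same length. The shorter letters TGACG, read on both strands and contained in the full element, were found for 6 of the 8 (Sst, Cck, Tac1, Vip, Nts and Scg2), against 17.8% of all windows. TATAAA was found for Vip alone among the 8, against 12.4%. The stretches below are shown because Cck and Vip carry the calls given further on, and Sst and Scg2 hold the full element. Capitals mark the CRE letters and, in Vip, TATAAA. They are written 5′ to 3′ on the strand of the gene, all of them before the RefSeq start. For Sst and Scg2, where GENCODE M21 has a transcript that begins further upstream, 30 bases around the element are given.
Cck, chr9:121495695-121495814, minus strand: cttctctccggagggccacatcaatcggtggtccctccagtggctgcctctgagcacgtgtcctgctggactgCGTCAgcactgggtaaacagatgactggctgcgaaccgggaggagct
Vip, chr10:5639098-5639217, plus strand: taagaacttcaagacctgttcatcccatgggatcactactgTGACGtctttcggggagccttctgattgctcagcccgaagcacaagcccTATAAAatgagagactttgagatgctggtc
Sst, chr16:23890874-23890903, minus strand: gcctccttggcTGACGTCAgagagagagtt
Scg2, chr1:79440076-79440105, minus strand: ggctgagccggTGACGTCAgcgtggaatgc
In Sst the full element lay at positions -48 to -41 from the start and in Scg2 at -68 to -61. The shorter letters lay at -47 to -43 in Cck and at -79 to -75 in Vip. A match is a description of the letters and not of binding.

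The libraries held 14087723 to 34248172 reads on genes (median 22221832), and 38.4% to 73.7% of the counted reads were on no gene. Levels are given as CPM, reads on a gene per 1000000 reads on genes, after TMM scaling, a correction for library composition. Pan-neuronal markers were high in all libraries, with a summed level of 2350 to 5889 CPM over 5 genes, and so were the glutamatergic marker Slc17a7 (312 to 1245 CPM) and the GABAergic markers Gad1 and Gad2 (194 to 447 CPM together). Astrocyte markers were also present in every library (1139 to 5442 CPM over 6 genes). So were oligodendrocyte lineage markers (104 to 832 CPM over 6 genes) and mural and fibroblast markers (22.6 to 286 CPM over 6 genes). Microglial (4.71 to 13.7 CPM over 5 genes) and endothelial markers (0.305 to 1.12 CPM over 2 genes) were near 0. Libraries of the same replicate number resembled each other across groups, so the comparisons were fitted over groups and also with the replicate number as a block, and the fit behind each value is named.

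Per kilobase of exon, Scg2, a granin that is itself cut into secretoneurin, had the highest level of the 9 tested members, with a mean of 292 CPM per kb over the 16 libraries (range 117 to 552). Cck followed with 144 CPM per kb (37.5 to 315) and Npy with 90.6 CPM per kb (39.5 to 170). These levels exceeded those of 99.7%, 99.0% and 98.1% of the 16492 tested genes with a known length. Sst stood at 33.2 CPM per kb (17.5 to 51.4), above 92.9% of genes. Penk (5.40), Vip (3.37) and Tac1 (3.02) were near the middle of all genes in mean CPM per kb. Pdyn (0.733) and Nts (0.408) were lower still, above 24.1% and 16.3% of the tested genes. Sst and Penk did not overlap between libraries in CPM per kb, whereas the other neighbours in this order did, so the order among those is one of means. Crh was covered by 0 to 16 reads per library, which is too few for a comparison.

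For all tested members except Npy and Tac1, most of the spread lay between replicate numbers and not between groups. On the log2 CPM scale, the replicate number held 85.1% of the variance of Cck, 83.6% of Penk, 83.5% of Scg2 and 82.5% of Pdyn. Over all tested genes the median share was 56.1%, and 86.2% to 90.0% of genes had a lower share than these 4 members. For Sst and Vip the replicate number held 64.5% each. Npy and Tac1 stood apart, with 30.5% and 20.6% between numbers. The share that lay between the 4 groups was largest in Npy (35.4%), Tac1 (24.3%) and Vip (24.2%), against a median of 14.4% over all genes, and smallest in Scg2 (0.736%).

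**Figure D1:**
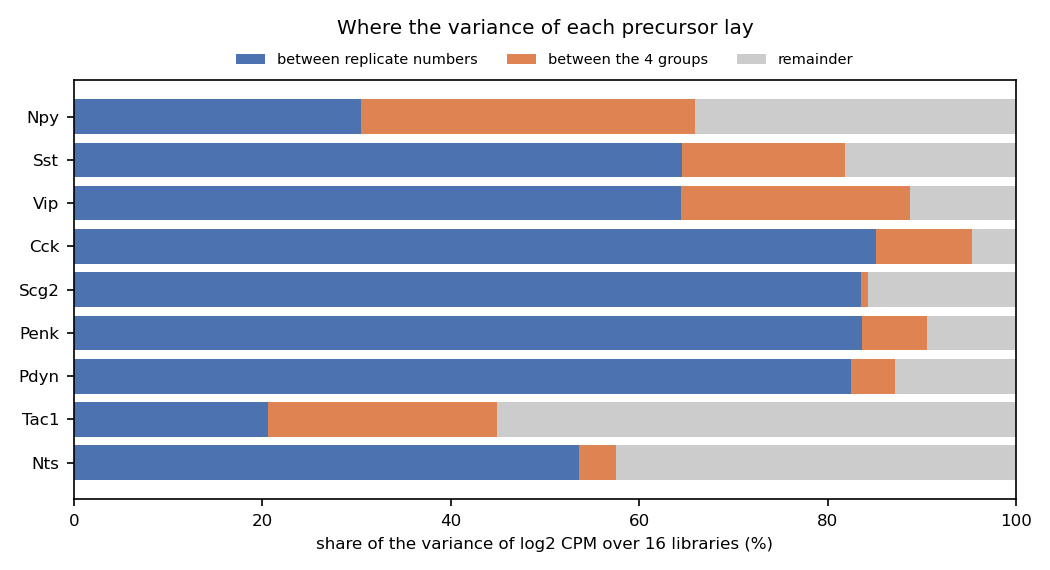
Share of the variance of log2 CPM over the 16 libraries, in percent, for each tested precursor, divided into the part between replicate numbers, the part between the 4 groups and the remainder. Cck had 85.1% between numbers, whereas Npy had 30.5% between numbers and 35.4% between groups.

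The numbers separated the members into opposite patterns. Cck averaged 280 CPM in the 4 libraries numbered 2 and 305 CPM in those numbered 3, but 87.7 and 77.8 CPM in those numbered 1 and 4. Pdyn, the dynorphin precursor, did the reverse, at 0.591 and 0.742 CPM in numbers 2 and 3 against 2.62 and 4.51 CPM in numbers 1 and 4. Scg2 was highest in number 3 (1222 CPM) and lowest in numbers 1 and 4 (472 and 454 CPM). Penk, the enkephalin precursor, was high in number 3 alone, at 16.3 CPM against 5.25 to 7.25 CPM in the others. Sst was low in number 3, at 13.9 CPM against 23.9 to 32.0 CPM. Summed cell type markers moved with the number as well. Glutamatergic markers were at 2057 and 2211 CPM in numbers 2 and 3 against 1500 and 878 CPM in numbers 1 and 4. GABAergic markers were low in number 3, at 402 CPM against 704 to 788 CPM. Oligodendrocyte lineage markers were at 116 and 220 CPM in numbers 2 and 3 against 645 and 546 CPM in numbers 1 and 4. Mural and fibroblast markers were at 24.4 and 27.5 CPM against 127 and 199 CPM in the same order. The part of these cells in the members' levels was not tested.

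**Figure D2:**
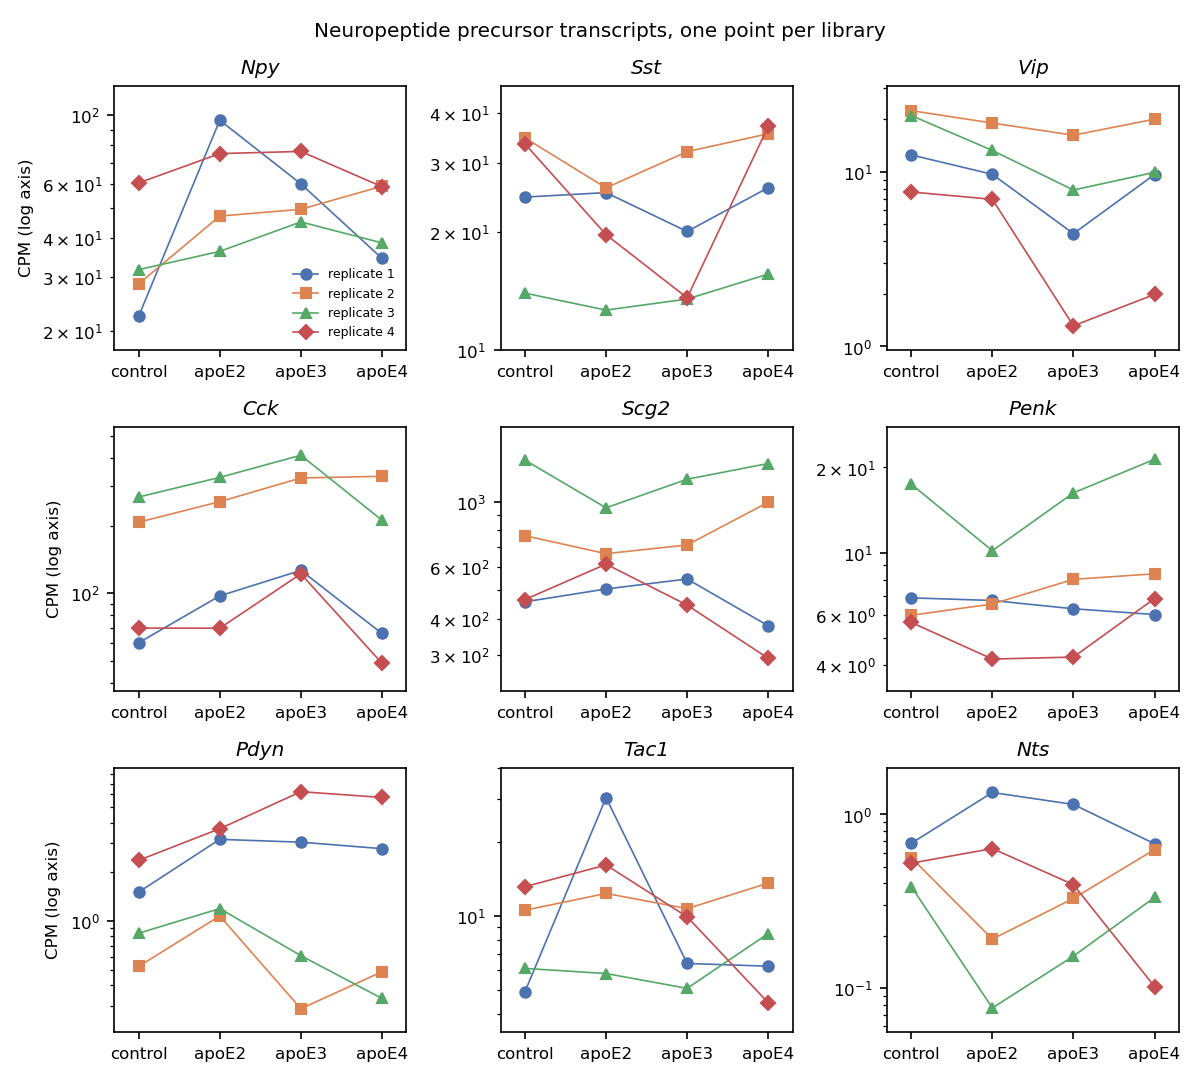
Level of each tested precursor in the 16 libraries, in CPM on log axes, by group. Lines join libraries of the same replicate number, which keep their order for Cck, Penk and Pdyn far more than for Npy or Tac1. Vip lies below its control library in all 4 apoE3 libraries.

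Over groups alone, 0 of the 9 tested members were called in any of the 6 comparisons (edgeR quasi-likelihood test, adjusted p under 0.05). Few genes of any kind were: 0% of the tested genes for apoE2 against control, 0.00587% for apoE3 and 0.194% for apoE4, and 0.147% for apoE4 against apoE3, 0.252% for apoE4 against apoE2 and 0% for apoE3 against apoE2. At an unadjusted p under 0.05, 1 member (Npy, apoE2 against control) passed over groups. With the replicate block, 2, 4 and 1 of 9 did for apoE2, apoE3 and apoE4 against control. Between isoforms 2 did for apoE4 against apoE3, 2 for apoE4 against apoE2 and 3 for apoE3 against apoE2. The share of all genes at this threshold is not given here, so these counts have no background beside them. By the study's criterion, 2-fold or more at an unadjusted p below 0.05, 0 of 9 members passed over groups in each comparison with control. Of all genes, 0.722%, 1.96% and 1.15% did for apoE2, apoE3 and apoE4. With the replicate block Vip passed this criterion for apoE3, where 4.77% of all genes did. Single libraries also moved it: Npy and Tac1 passed for apoE2 without control replicate 4 (1.35% of genes) or without apoE2 replicate 3 (0.833%), Npy passed for apoE3 without control replicate 4 (4.43%), and Vip passed for apoE3 without apoE3 replicate 2 (5.32%). DESeq2 without a block also called 0 members. With the replicate number as a block, edgeR called 2 of 9 members for apoE3 against control (Vip lower, Cck higher), where 11.7% of all genes were called, and 1 of 9 for apoE4 against apoE3 (Cck), where the share was 1.76%. It called 0 of 9 for apoE2 and for apoE4 against control, where the shares were 1.73% and 3.3%, and 0 of 9 for apoE4 and for apoE3 against apoE2, where they were 4.44% and 1.31%. DESeq2 with the block called 1, 3 and 1 of 9 members for apoE2, apoE3 and apoE4 against control, where it called 4.16%, 15.8% and 5.65% of all genes, and 1 of 9 in each comparison between isoforms, where the shares were 4.13% for apoE4 against apoE3, 7.29% for apoE4 against apoE2 and 4.26% for apoE3 against apoE2. The 3 comparisons with control share the same 4 control libraries.

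Within the 4 same-number pairs, 2 of 9 members were higher in all 4 pairs with apoE2 (Npy and Pdyn), 2 with apoE3 (Npy and Cck) and 1 with apoE4 (Sst). The shares of all tested genes that did so were 11.6%, 18.6% and 14.9%. A single member was lower in all 4 pairs with apoE2 (Vip), 2 with apoE3 (Sst and Vip) and 1 with apoE4 (Vip), against 9.73%, 16% and 11.3% of all genes.

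**Figure D3:**
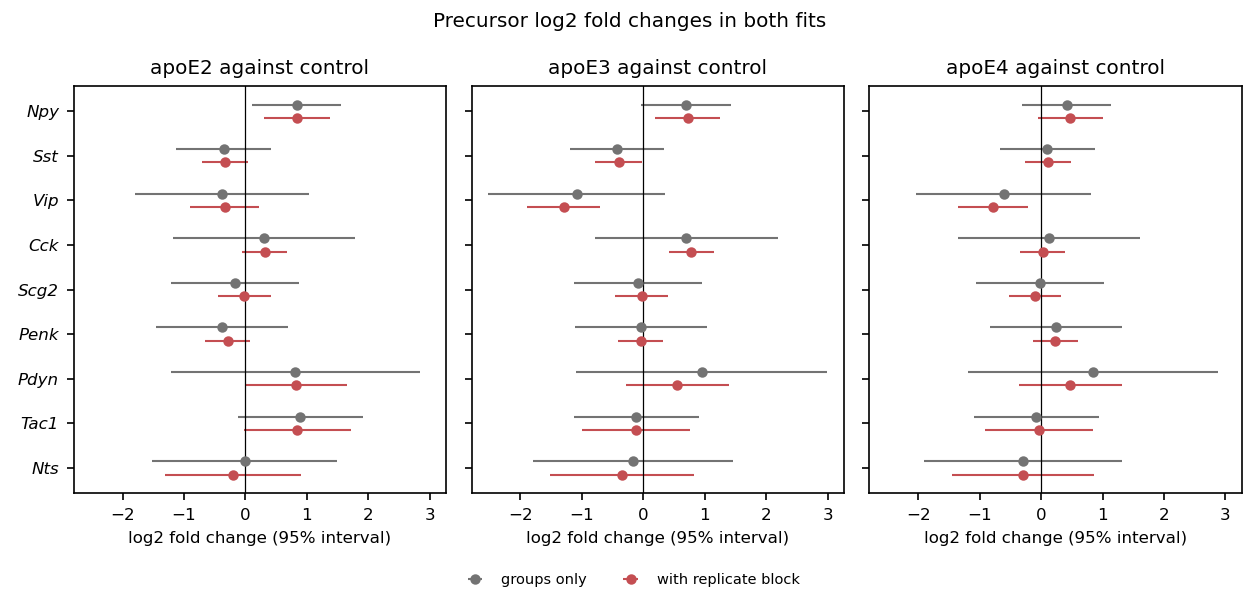
Log2 fold change of each tested precursor against control for apoE2, apoE3 and apoE4, with 95% intervals, from the fit over groups (grey) and from the fit with the replicate block (red). The blocked intervals of Vip (-1.89 to -0.70) and Cck (0.41 to 1.15) with apoE3 belong to the 2 members called in that fit. Those of Npy with apoE2 and apoE3, Vip with apoE4, Sst with apoE3 and Pdyn with apoE2 also exclude 0, without an adjusted call.

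Vip, whose peptide marks interneurons that mainly inhibit other interneurons, was lower with apoE3 lipoproteins than in control neurons. The gene lies at chr10:5639218-5647617 on the plus strand (GRCm38, GENCODE M21), in 7 blocks of exon. In replicates 1 to 4 its level was 12.5, 22.3, 20.9 and 7.65 CPM in control neurons and 4.42, 16.2, 7.85 and 1.31 CPM with apoE3. With apoE2 it was 9.65, 19.0, 13.2 and 6.94 CPM, and with apoE4 9.62, 19.95, 9.91 and 1.98 CPM. The groups overlapped, since replicate 2 was high and replicate 4 low in each of them, but each apoE3 library lay below the control library of its number. The lowest value, of apoE3 replicate 4, rests on 20 reads, and the others on 39 to 700.

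For apoE3 the log2 fold change of Vip was -1.08 (SE 0.67, adjusted p = 0.806) over groups and -1.30 (SE 0.28, adjusted p = 0.00833, n = 4 per group) with the replicate block, or 0.407 times the control level. The 4 pairs differed by -1.50, -0.47, -1.42 and -2.54 on the log2 scale. Leaving out all libraries of 1 number, the blocked value ranged from -1.70 to -1.07, and the call was lost without number 1 (adjusted p = 0.0778) and without number 3 (adjusted p = 0.0715). For apoE4 the blocked log2 fold change was -0.79 (SE 0.27, adjusted p = 0.147), and for apoE2 it was -0.34 (SE 0.26, adjusted p = 0.657). DESeq2 with the block called Vip for apoE3 (adjusted p = 5.64e-05) and for apoE4 (adjusted p = 0.049). In these bulk libraries, fewer cells of a type and less RNA per cell cannot be told apart.

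Sst, which marks dendrite-targeting interneurons, was not called in any comparison. The gene lies at chr16:23889573-23890958 on the minus strand. Its level in replicates 1 to 4 was 24.5, 34.7, 13.96 and 33.5 CPM in control neurons, 25.2, 25.9, 12.6 and 19.7 CPM with apoE2, 20.03, 32.0, 13.5 and 13.6 CPM with apoE3, and 25.9, 35.5, 15.6 and 37.1 CPM with apoE4. Replicate 3 was low in every group, and the groups overlapped throughout. The blocked log2 fold change was -0.40 (SE 0.18, adjusted p = 0.155) for apoE3, with replicate 4 showing the largest drop, -0.33 (SE 0.18, adjusted p = 0.453) for apoE2 and 0.11 (SE 0.17, adjusted p = 0.80) for apoE4. Against apoE3, Sst with apoE4 differed by 0.51 (SE 0.18, adjusted p = 0.170) and was higher in 4 of 4 pairs.

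Npy, made by several classes of interneurons and induced by strong activity in other hippocampal cells, had higher values with apoE2 and apoE3. The gene lies at chr6:49822710-49829507 on the plus strand. In replicates 1 to 4 its level was 22.4, 28.5, 31.7 and 60.4 CPM in control neurons, 96.5, 47.2, 36.3 and 75.2 CPM with apoE2, 60.0, 49.6, 45.2 and 76.4 CPM with apoE3, and 34.4, 59.0, 38.6 and 58.8 CPM with apoE4. Control replicate 4 was the highest control library, with a gap to the next below Dixon's limit (ratio 0.651), and lay within or above the range of each treated group. The highest value of all belonged to apoE2 replicate 1, which rests on 1369 reads.

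The log2 fold change of Npy was 0.84 (SE 0.34, unadjusted p = 0.0272, adjusted p = 1) for apoE2 and 0.69 (SE 0.34, adjusted p = 0.770) for apoE3 over groups. With the block it was 0.84 (SE 0.25, adjusted p = 0.112) and 0.72 (SE 0.25, adjusted p = 0.0726), so edgeR did not call it, whereas DESeq2 with the block did (adjusted p = 0.0224 and 0.0315). For apoE4 the blocked value was 0.47 (SE 0.25, adjusted p = 0.360). The apoE2 value leaned on replicate 1, as it fell to 0.57 without apoE2 replicate 1 and to 0.40 without all 4 libraries of that number. It rose to 1.21 without control replicate 4 (unadjusted p = 0.00212, adjusted p = 0.795). The intervals between isoforms were wide: apoE3 against apoE2 gave a blocked log2 difference of -0.12 (95% interval -0.65 to 0.40).

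The GABAergic markers moved in the same comparison as Vip. The levels of Vip, Sst, Npy and Cck, the last made by pyramidal cells as well, were also set against Gad1 and Gad2 of this list. With apoE3, 4 of 10 tested markers of this list fell in the blocked fit (Gad1, Dlx1, Lhx6 and Reln) and 1 rose (Pvalb), beside 3.73% and 7.95% of all genes. Over groups none of the 10 was called for apoE3 (Gad1 adjusted p = 0.757). With apoE2 and with apoE4 none of the 10 passed in the blocked edgeR fit, beside 1.73% and 3.3% of all genes. In that fit 3 and 2 of them had an unadjusted p under 0.05. The share of all genes at that threshold is not given here, so these counts have no background beside them. Their summed level was 454 to 867 CPM in control and 347 to 682 CPM in apoE3 libraries, and none of them was at 0. Gad1, which encodes a GABA-synthesizing enzyme, was at 0.621 times the control level with apoE3 in the blocked fit (log2 -0.69, SE 0.13, adjusted p = 0.00381). Relative to Gad1 and Gad2 together in the same library, Vip with apoE3 lay below control in 4 of 4 pairs (mean log2 -0.93 ± 0.61 SD). In CPM the same pairs averaged -1.48 ± 0.85 SD. Sst was above control in 3 of 4 pairs and below it in the other on that scale (0.11 ± 0.35 SD). Npy lay above control in 4 of 4 pairs (1.32 ± 0.42 SD), and so did Cck (1.33 ± 0.36 SD). In CPM the same pairs averaged 0.77 for Npy and 0.78 for Cck, so these ratios also hold the fall of Gad1 and Gad2. With apoE4, where Gad1 differed little from control (log2 -0.06, SE 0.13, adjusted p = 0.876), Vip relative to the 2 genes was lower in 4 of 4 pairs (-0.86 ± 0.91 SD). With apoE2 it was lower in 2 of 4 pairs (0.03 ± 0.33 SD). These ratios are a description with n = 4 pairs and carry no test, and the part of GABAergic cells in the members' values was not tested.

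**Figure D4:**
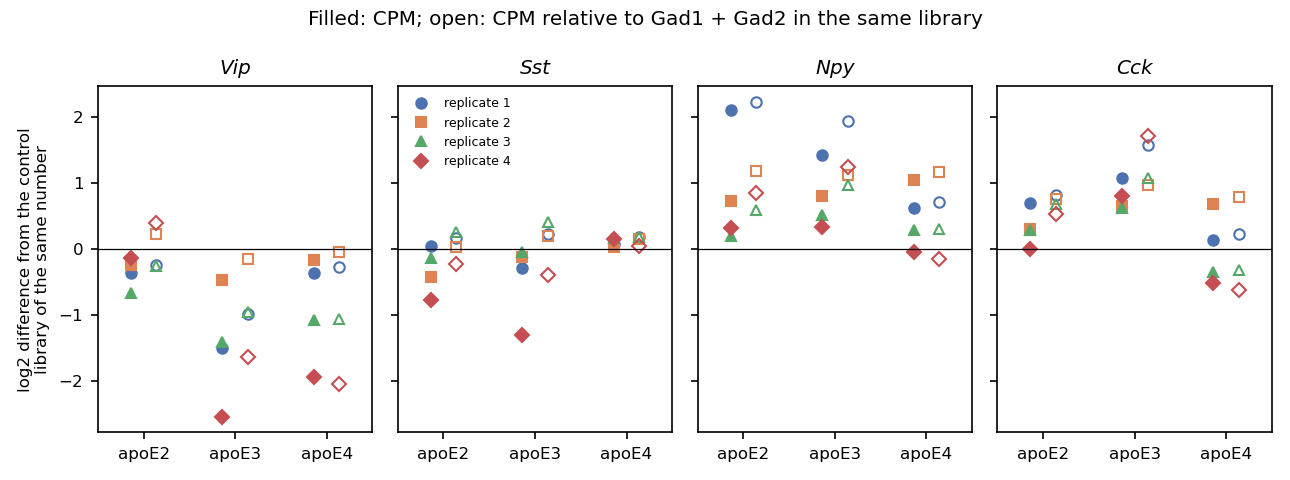
Log2 difference of each treated library from the control library of the same number for Vip, Sst, Npy and Cck. Filled points use CPM and open points use CPM relative to Gad1 and Gad2 together in the same library. The open Vip points for apoE3 average -0.93, whereas those of Npy and Cck average 1.32 and 1.33.

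Cck, produced by basket interneurons and at lower levels by pyramidal cells, was higher with apoE3. The gene lies at chr9:121489824-121495694 on the minus strand. Its level in replicates 1 to 4 was 60.3, 207, 268 and 70.1 CPM in control neurons, 97.5, 256, 328 and 70.0 CPM with apoE2, 127, 326, 411 and 122 CPM with apoE3, and 66.4, 331, 211 and 48.9 CPM with apoE4. Replicates 2 and 3 were much higher than 1 and 4 in all groups, so the groups overlapped although the apoE3 library was above the control library of its number every time. Over groups the log2 fold change for apoE3 was 0.70 (SE 0.70, adjusted p = 0.822), and with the block it was 0.78 (SE 0.17, adjusted p = 0.00971, n = 4 per group), a fold of 1.72. The 4 pairs differed by 1.07, 0.65, 0.62 and 0.80. The call was lost without number 1 (0.70, adjusted p = 0.107). With apoE2 the blocked value was 0.32 (SE 0.17, adjusted p = 0.469).

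With apoE4, Cck was near control (blocked log2 fold change 0.02, SE 0.17, adjusted p = 0.965), and 2 pairs lay above and 2 below. Against apoE3 it was lower, by a blocked log2 difference of -0.76 (SE 0.17, adjusted p = 0.0379) and in 3 of 4 pairs. Replicate 2 did not share this, with 331 CPM for apoE4 and 326 CPM for apoE3. Without the libraries of number 2 the difference was -1.07 (adjusted p = 0.00264). The call was lost without number 1 (adjusted p = 0.244), number 3 (adjusted p = 0.296) or number 4 (adjusted p = 0.119).

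Scg2 showed no difference by group beyond its spread. It ran from 457 to 1388 CPM in control, 505 to 955 CPM in apoE2, 445 to 1195 CPM in apoE3 and 293 to 1351 CPM in apoE4 libraries. Its blocked log2 fold changes against control were -0.02 (95% interval -0.44 to 0.41), -0.03 (-0.45 to 0.40) and -0.10 (-0.53 to 0.32) for apoE2, apoE3 and apoE4.

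The opioid precursors did not pass the test either. Penk was 6.91, 5.997, 17.5 and 5.66 CPM in control replicates 1 to 4, against 4.20 to 10.1 CPM with apoE2, 4.27 to 16.3 CPM with apoE3 and 6.03 to 21.4 CPM with apoE4. In the annotation, 14.3% of its exon length lies under a gene on the opposite strand, and whether reads were counted by strand is unknown here. For apoE4 against apoE2 its blocked log2 difference was 0.52 (SE 0.17, adjusted p = 0.108), which DESeq2 with the block called (adjusted p = 0.0472). Pdyn ran from 0.523 to 2.36 CPM in control and from 1.07 to 3.69 CPM in apoE2 libraries, higher in 4 of 4 pairs, with a blocked log2 fold change of 0.83 (SE 0.39, adjusted p = 0.373). With apoE3 and apoE4, Pdyn was higher in numbers 1 and 4 and lower in numbers 2 and 3, so the pairs disagreed. Its counts were 6 to 145 reads per library.

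Tac1, the substance P precursor, owed its apoE2 difference to 1 library. Its level was 4.91, 10.5, 6.11 and 13.1 CPM in control replicates 1 to 4 and 30.3, 12.3, 5.82 and 16.1 CPM with apoE2, where replicate 1 stood far above its control library and the other 3 lay close to theirs. The blocked log2 fold change was 0.85 (SE 0.41, adjusted p = 0.391), and it was 0.19 without all libraries of number 1. With apoE3 it ran from 5.07 to 10.7 CPM and with apoE4 from 4.43 to 13.6 CPM. The same library, apoE2 replicate 1, held the highest Npy level. Of the 16 libraries it had the highest share of reads on no gene (73.7%), the highest share of gene reads on Lars2, a mitochondrial tRNA synthetase gene (15%) and the lowest TMM factor (0.889). The other treated libraries of number 1 came close in the first 2 measures (71.6% and 12.5% with apoE3, 73.1% and 12.2% with apoE4), whereas control replicate 1 had 61.8% and 5.95%. The part of these in the Npy and Tac1 values, and in the Vip and Cck calls that were lost without number 1, was not tested. Nts, the neurotensin precursor, had 2 to 25 reads per library, or 0.0766 to 1.34 CPM, and its blocked intervals against control reached from -1.51 to 0.91. Crh, the corticotropin-releasing hormone precursor, was at 2 to 5 reads in control libraries and 0 to 16 in the others. The 0 reads of apoE3 replicate 2 allow a level of up to 0.123 CPM by counting error alone.

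Among the isoforms, the blocked fit found no other called difference in the members. For apoE3 against apoE2, Vip had a log2 difference of -0.96 (SE 0.28, adjusted p = 0.105, lower in 4 of 4 pairs) and Cck one of 0.47 (SE 0.17, adjusted p = 0.198, higher in 4 of 4 pairs). Tac1 had one of -0.96 in that comparison (SE 0.41, adjusted p = 0.266, lower in 4 of 4 pairs), with the pair of number 1 at -2.24. Sst for apoE4 against apoE2 differed by 0.44 (SE 0.18, adjusted p = 0.190, higher in 4 of 4 pairs). Vip for apoE4 against apoE3 differed by 0.51 (95% interval -0.09 to 1.11), and it was higher in 4 of 4 pairs.

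Of 31 other precursors listed, 15 were tested and 0 were called over groups. In the blocked fit for apoE3, Gal (galanin) and Pomc (pro-opiomelanocortin) rose and Nmb (neuromedin B) fell, which is 2 (13.3%) and 1 (6.67%) of 15, beside 7.95% of all tested genes that rose and 3.73% that fell in that fit. Counts this small lie close to those shares. Gal was at 0.0805 to 0.314 CPM in control and 0.205 to 1.98 CPM in apoE3 libraries (log2 2.12, SE 0.56, adjusted p = 0.0251), which is low for both groups. Nmb was at 1.64 to 4.45 CPM in control and 1.25 to 1.52 CPM in apoE3 libraries, without overlap (log2 -0.92, SE 0.24, adjusted p = 0.0234), although 20.6% of its exon length lies under another gene, Sec11a, on the same strand. Pomc also rose with apoE4 (log2 1.35, SE 0.33, adjusted p = 0.0357), from 0.161 to 0.419 CPM in control to 0.456 to 1.76 CPM. Tac2, which encodes neurokinin B, and Cort, whose cortistatin resembles somatostatin, met the study's criterion for apoE3 (log2 1.81 and -1.53 over groups) but not the adjusted threshold with the block (adjusted p = 0.057 and 0.0669). The median over the 15 was 0.07 for apoE3 over groups, beside 0.02 for all genes.

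Among genes that process and store peptides, those that passed with apoE3 in the blocked fit were lower, except Ctsl. Over groups none of these genes, nor any receptor or cell type marker listed, was called for apoE3 by edgeR (Pcsk1 adjusted p = 0.863). Of 11 tested processing enzymes, 3 (27.3%) fell in the blocked fit and 1 (9.09%) rose (Ctsl, a cathepsin), beside the same 3.73% and 7.95% of all genes. Ctsl was higher in 3 of 4 pairs, and 26.8% of its exon length lies under other genes, among them Gm49230 on the same strand. Pcsk2, the prohormone convertase that cuts most of these precursors, was at 89.1 to 142 CPM in control and 42.8 to 105 CPM in apoE3 libraries (log2 -0.86, SE 0.13, adjusted p = 0.000937). Pcsk1, which encodes the other main neuronal convertase, fell by 0.82 (SE 0.19, adjusted p = 0.014), and Pcsk5 by 0.80 (SE 0.11, adjusted p = 0.000559) on the log2 scale. Of 6 other granins, Chgb (chromogranin B), or 16.7% of them, fell (log2 -0.45, SE 0.10, adjusted p = 0.00793), and 5 did not pass. Of 16 dense-core vesicle genes, Cadps2, Ptprn2 and Syt10 (18.8%) fell, by 0.44, 0.33 and 0.71, and none rose. With apoE4 none of these 33 genes passed in the blocked fit, and with apoE2 the 1 that passed was Rab27b, a GTPase of vesicle docking, beside 3.3% and 1.73% of all genes, so both counts were near the background. Rab27b was at 11.7 to 25.3 CPM in control and 25.7 to 57.8 CPM in apoE2 libraries, without overlap (log2 1.15, SE 0.16, adjusted p = 0.004). The difference between isoforms was itself called for apoE4 against apoE2 (-1.10, adjusted p = 0.00134) and for apoE3 against apoE2 (-0.82, adjusted p = 0.0258).

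**Figure D5:**
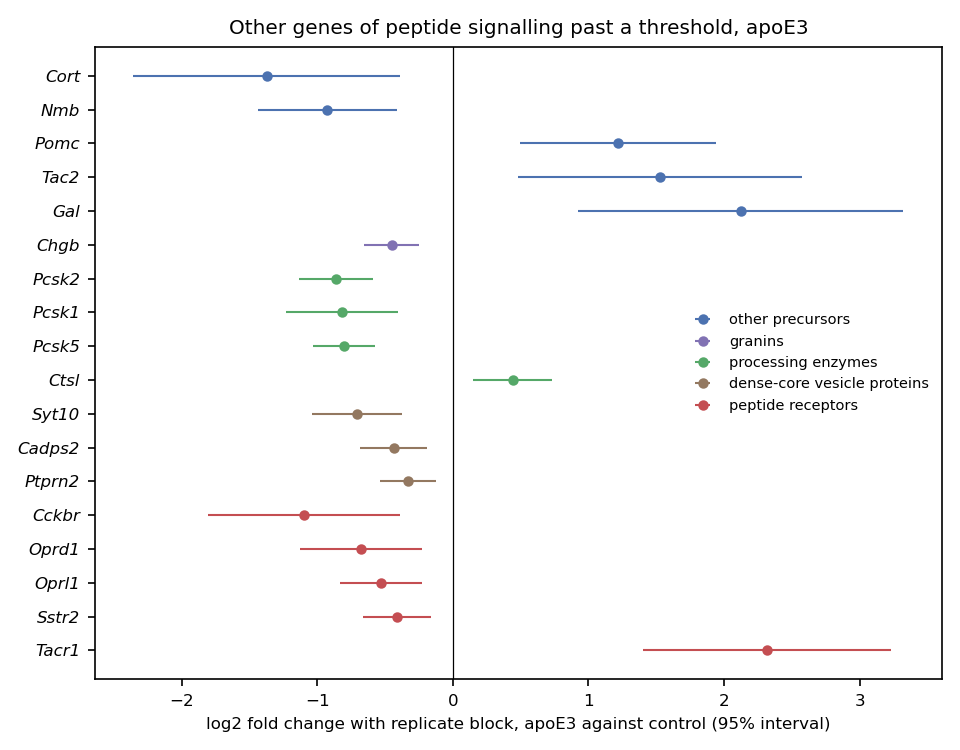
Log2 fold change with 95% interval, from the fit with the replicate block, of the listed genes of peptide signalling that passed that fit or the study's criterion for apoE3 against control. Of the 18 genes, 13 lie below 0, among them Pcsk2 at -0.86, and Tacr1 lies highest at 2.32.

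Of 21 tested neuropeptide receptors and peptide-binding proteins, 4 (19.0%) fell with apoE3 in the blocked fit (Sstr2, Cckbr, Oprd1 and Oprl1) and 1 (4.76%) rose, beside 3.73% and 7.95% of all genes. The gene that rose was Tacr1, the receptor for substance P, at 0.558 to 1.14 CPM in control and 3.03 to 5.58 CPM in apoE3 libraries, without overlap (log2 2.32, SE 0.43, adjusted p = 0.00381). With apoE2 it was at 1.41 to 4.81 CPM (log2 1.49, SE 0.44, adjusted p = 0.109). Cckbr, the main cholecystokinin receptor of the brain, fell by 1.10 (SE 0.33, adjusted p = 0.0438) with apoE3 in the blocked fit. It was lower in 3 of 4 pairs, at a mean of 3.35 CPM against 7.11 CPM in control. Its ligand gene Cck rose in that comparison, and a link between them was not tested. Crhr1, the receptor for corticotropin-releasing hormone, fell with apoE2 (log2 -0.90, SE 0.19, adjusted p = 0.0313), from 14.2 to 24.0 CPM in control to 8.24 to 13.3 CPM, without overlap. Its difference between apoE4 and apoE2 passed over groups as well (log2 1.18, SE 0.22, adjusted p = 0.0392), since apoE4 libraries held 17.2 to 29.2 CPM.

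Markers of other cells moved in the same comparisons as the members. With apoE3, 5 of 6 astrocyte markers rose in the blocked fit (Gfap, Aqp4, Slc1a3, Aldh1l1 and Gja1), beside 7.95% of all genes, and their summed level was 1275 to 2651 CPM in control and 1517 to 5442 CPM in apoE3 libraries. Gfap was at 2.65 times the control level in that fit (log2 1.40, SE 0.19, adjusted p = 0.000543). With apoE4, 3 of 6 rose, and with apoE2 none did, beside 3.18% and 1.17% of all genes that rose. The study also counted GFAP-labeled astrocytes by immunostaining on coverslips at 17 DIV. It found no significant difference in their fraction between treatments. That is a count of cells and not an RNA level. Of 4 tested markers of dividing cells, Top2a alone (25%) rose in the blocked fit with apoE2 and apoE3, beside 1.17% and 7.95% of all genes. Its log2 values were 1.84 (SE 0.34, adjusted p = 0.014) and 2.58 (SE 0.35, adjusted p = 0.000559). Over groups, 3 of the 4 had values above 0 with apoE2 and 4 with apoE3. Olig1 and Olig2 of the oligodendrocyte lineage and Col3a1 of fibroblasts also rose with apoE3. Of 5 pan-neuronal markers, 4 had log2 values below 0 (blocked median -0.13), of which Snap25 passed (log2 -0.35), and Tubb3 rose (0.35). Of 6 glutamatergic markers, 5 had log2 values below 0 without passing (blocked median over the 6 of -0.46, with Slc17a7 at -0.25, SE 0.15, adjusted p = 0.299), and Slc17a6 rose (0.71, SE 0.21, adjusted p = 0.0378). For apoE4 against apoE3 in the blocked fit, Gad1 and Reln of 10 GABAergic markers were higher (20% beside 1.07% of all genes). Olig2, of 6 oligodendrocyte lineage markers (16.7%), and Top2a, of 4 markers of dividing cells (25%), were lower, beside 0.693% of all genes. Over groups, 3 of those 4 markers of dividing cells had values above 0 and 1 below. The part of these cells in the values of Vip, Cck or the peptide-processing genes was not tested.

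Across the 16 libraries, the genes most like Vip in log2 CPM were Kcnd2, Lmo7 and Cpne4 (Pearson r of 0.978, 0.976 and 0.974). Those most like Cck were Thsd4, Adora1 and Trappc2l (0.962, 0.950 and 0.940), and those most like Scg2 were Rab3gap2, Ndel1 and Igfn1 (0.972, 0.968 and 0.964). Pdyn was most like Plod2 and Stard13 (0.960 and 0.952), and Penk most like Gnb5, Rgs2 and Trim72 (0.958, 0.946 and 0.940). For Sst they were Ramp3, Map4k2 and Sec14l3 (0.922, 0.915 and 0.902), and for Npy they were Mea1, Sel1l3 and Eif3d (0.933, 0.869 and 0.848). Tac1 (Mrpl15, BC003965 and 3110002H16Rik) and Nts (Mrpl2, Ndufs7 and Mbtps1) had weaker best partners, from 0.751 to 0.883. Among the members, Cck and Scg2 (r = 0.842) and Penk and Scg2 (r = 0.787) were alike, and Pdyn ran against Scg2 (r = -0.787), Cck (r = -0.780) and Vip (r = -0.766). These values are a description over 16 libraries that share 4 replicate numbers, and they were not recomputed with the number removed.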

How the data were processed

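RNA of 16 cultures, 4 per group, was depleted of ribosomal RNA and sequenced by the authors, who aligned reads to mm10 with STAR and counted them per gene with HTSeq. The deposited values are raw counts per gene symbol. The annotation and strand setting are not given in the sources used here. The 5 summary rows of the counter were left out of library sizes, and reads in them were 38.4% to 73.7% of all.

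Counts of all 16 libraries were fitted with edgeR 4.0.16 (R 4.3.3), with TMM scaling, filterByExpr (minimum count 10, total 15, proportion 0.7), a mean per group, glmQLFTest and Benjamini-Hochberg adjustment over 17038 genes in each of 6 comparisons. A call is an adjusted p under 0.05. Standard errors and 95% intervals were derived from the quasi-likelihood F. Log2 CPM used a prior count of 2. The study's criterion was a fold of 2 with an unadjusted p under 0.05. Positions, exon lengths and overlaps came from GENCODE M21 (GRCm38), with 95.9% of symbols matched. Promoters came from RefSeq (GRCm38.p6). The fits were tested on simulated data.

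Labels give the replicate numbers 1 to 4 in every group. The numbers pair the libraries: deviations from the group means correlated between same-numbered libraries at 0.362 to 0.831 in all 24 pairs, above the limit of 0.1, against -0.736 to 0.569 for different numbers. What a number stands for (culture, litter or day) is not given, and p-values measure the spread between these libraries, which may be technical. The blocked fit is given beside a result where it changes a call.

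All members were named, with listed genes called by either rule in a comparison with control (up to 3 of the smallest p per list), cell type markers, and the 3 genes of highest Pearson r per member. Of these, 1 cell type marker, left out of its list, and 1 gene like a member are not reported here. Members and lists were chosen with earlier results of these data known. The alternatives tried were DESeq2 (1.42.0), other scaling, other filters, the methods' own test, the 2 compared groups alone, the block, and leaving out libraries. Counting error alone sets the limit for 0 reads (3 counts).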

Additional observations from a re-analysis of the deposited data

Results flagged for a closer look

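Cck differed between isoforms in a test of the difference itself: with the replicate block, apoE4 against apoE3 gave a log2 difference of -0.76 (edgeR adjusted p = 0.0379), lower in 3 of 4 pairs. Without the libraries of number 1, 3 or 4 it no longer passed (adjusted p of 0.244, 0.296 and 0.119). Over groups the value was -0.58 (adjusted p = 1). No member had a library far from the other 3 of its group by Dixon's criterion in 36 tests, a rule by which chance flags about 1 in 20 groups. The nearest was Penk in control replicate 3, at 17.5 CPM, with a ratio of 0.823.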

How the results depend on the processing

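Over groups, 0 of 9 members were called in each of the 6 comparisons, and this held with other scaling (DESeq2 size factors or upper quartile), other filters, DESeq2, the methods' own test and the 2 compared groups alone. The replicate block changed it. With the replicate block in edgeR, 2 members were called for apoE3 against control and 1 for apoE4 against apoE3. With DESeq2 and the replicate block, 3 members were called for apoE3 (Npy, Cck and Vip), 1 each for apoE2 (Npy) and apoE4 (Vip) against control, and 1 each for apoE4 against apoE3 (Cck), apoE4 against apoE2 (Penk) and apoE3 against apoE2 (Vip), where 15.8%, 4.16%, 5.65%, 4.13%, 7.29% and 4.26% of all genes were called. By the study's criterion, 1 member (Vip) passed for apoE3 in either blocked fit, against 0 over groups, where 4.77% (edgeR) and 4.68% (DESeq2) of all genes did against 1.96%. Leaving out a library or all libraries of 1 number, in fits with and without the block, gave 0 to 2 calls for apoE3 against control and 0 to 1 for apoE4 against apoE3 and against apoE2. Where a member was called for apoE3 against control, 4.62% to 11.3% of all genes were called. For apoE4 against apoE3 the share was 1.71%, and for apoE4 against apoE2 it was 3.37%. By the study's criterion these fits gave 0 to 2 members for apoE2 (Npy and Tac1), 0 to 1 for apoE3 and 0 to 1 for apoE4, and where a member passed, 0.833% to 6.27% of all genes did. The cause was not tested.

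Of 1775 member values under all alternatives, 157 had the opposite sign to the value over groups, and 0 of these were called; 18 values were called, all in the direction of the value over groups. Npy with apoE2 and apoE3 kept a positive and Vip against control a negative value in all 33 alternatives each. Depth limits Nts (2 to 25 reads), Pdyn (6 to 145 reads) and Crh (0 to 16 reads). The block changed no other call of a member.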
